A study of Mus musculus with 39 samples.

Results

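Long noncoding RNAs were followed across the sucrose gradients of mouse liver, as a set of 4 RNAs known for retention in the nucleus (Malat1, Neat1, Kcnq1ot1 and Meg3) and 6 host RNAs of small nucleolar RNAs (Gas5, Snhg1, Snhg3, Snhg8, Snhg12 and Snhg20). The set was chosen by gene name, and a member was used where it had a row in the TPM tables (transcript abundance scaled to a fixed total) of both gradients. This gave 9 of the 10 named RNAs, among 13230 genes listed in both gradients. Meg3 was not analysed here. Of the 9, 3 are nuclear-retained RNAs and 6 are host RNAs.

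Livers of wild-type FVB female mice were homogenized with beads and without detergent, spun to remove nuclei, and layered on sucrose gradients of rising density. The groups are fractions of 2 gradients, which are biological replicates, with no treatment and no age given in the labels. Gradient 1 has 17 libraries (fractions 4 to 19 and 21) and gradient 2 has 22 libraries (fractions 3 to 24), where low numbers are the light top and high numbers the dense bottom. Every library was made from the same mass of input RNA, from which ribosomal RNA was then depleted, and its TPM values sum to a fixed total. TPM is thus an RNA's share of the RNA of a fraction and not its amount. A lower TPM can therefore not be told apart from a gain of other RNAs in that fraction, and sequencing depth is unknown from TPM.

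In the nucleus, Malat1 sits in nuclear speckles, Neat1 is the scaffold of paraspeckles, and Kcnq1ot1 is transcribed antisense to Kcnq1 from the paternal chromosome, where it silences neighboring imprinted genes. The host genes work differently. Their introns hold small nucleolar RNAs (snoRNAs), which guide the modification of ribosomal and other RNAs in the nucleolus or Cajal bodies, while the spliced host RNA is exported to the cytoplasm, where several of these RNAs are bound by ribosomes and broken down by nonsense-mediated decay.

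Because the nuclei had been spun out, the values describe the part of each RNA left in the cleared homogenate. Malat1 was by far the most abundant member there, with a mean TPM of 153 ± 68.3 (SD, n = 2 gradients) over the 24 libraries used for the zones defined below. Snhg8 followed at 30.5 ± 0.605, Gas5 at 27.1 ± 5.29 and Snhg1 at 21.7 ± 1.55. Snhg8 and Gas5 differed by less than the spread of Gas5 between gradients. Snhg12 was at 15.1 ± 0.953 and Neat1 at 14.6 ± 0.89, which also lay within their spread. Snhg3 was at 11.3 ± 1.79, Kcnq1ot1 at 3.51 ± 0.321 and Snhg20, the lowest, at 1.80 ± 0.224. The order placed members of both kinds among each other, and 8.31% of the tested genes were above Malat1 where 92.8% were above Snhg20. It pools the zones and differed within them. In the middle zone Snhg1 (15.8 TPM) was above Gas5 (8.44) and Snhg8 (6.72), and Snhg20 (2.43) was above Kcnq1ot1 (1.76). In the dense zone Snhg1 (6.40 TPM) was also above Gas5 (4.01) and Snhg8 (3.81).

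To compare light and dense fractions, log2(TPM + 1) was averaged per gradient in a light (fractions 4 to 7), a middle (10 to 13) and a dense zone (16 to 19), and these were compared with limma over the 11754 genes whose mean TPM reached 1. A gene was called at a Benjamini-Hochberg adjusted p under 0.05. Except for Snhg20, both kinds of RNA were highest in the light zone and fell toward the dense zone. From the light to the dense zone, 3 of 3 nuclear-retained RNAs and 5 of 6 host RNAs were lower, where 39.6% of all genes tested were called lower. From the light to the middle zone the same 8 RNAs were lower, where 24.1% of all genes were. Between the middle and dense zones, 1 nuclear-retained RNA (Neat1) and 4 host RNAs (Gas5, Snhg1, Snhg3 and Snhg12) were lower, where 22.5% of all genes were. Averaged over the gradients, the change of each of the 8 RNAs between the light and middle zones was the larger one, though for Snhg1 in gradient 2 (−1.21 and −1.47) and Snhg3 in gradient 1 (−1.50 and −1.68) the change between the middle and dense zones was larger.

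Malat1 ranged from 13.4 to 342 TPM over the 17 fractions of gradient 1, with a median of 23.6, and from 18.2 to 724 TPM over the 22 fractions of gradient 2, with a median of 32.0. In the light zone, fractions 4, 5, 6 and 7 were at 328, 342, 262 and 151 TPM in gradient 1, and at 480, 724, 632 and 313 TPM in gradient 2. In the dense zone, fractions 16 to 19 were at 17.8, 13.4, 17.5 and 22.9 TPM in gradient 1, and at 24.9, 23.4, 20.5 and 23.3 TPM in gradient 2. Every light fraction was above every dense fraction, with no overlap in either gradient, and gradient 2 was higher than gradient 1 throughout the light zone. Here and for the RNAs below, an absence of overlap is a description only. Fractions of a gradient share a homogenate, and the share of all genes without overlap is not given. On the log2(TPM + 1) scale, which all changes below use, Malat1 changed from light to dense by −4.11 (standard error 0.41, adjusted p = 6.64e-04, n = 2 gradients), with −3.80 in gradient 1 and −4.42 in gradient 2. Only 32 of the 11754 genes had a lower value. In gradient 1 the mean TPM of the light zone was 15.1 times that of the dense zone, and in gradient 2 it was 23.3 times. Between the middle and dense zones Malat1 changed by −0.67 (adjusted p = 0.282). With the gradient as a replicate block, which compares zones within a gradient, this change had an adjusted p of 0.0211, and over the alternatives it ran from 0.0211 to 0.721.

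Neat1 ranged from 1.20 to 52.0 TPM in gradient 1 (median 5.21) and from 2.94 to 49.7 TPM in gradient 2 (median 4.94). In gradient 1, fractions 4 to 7 were at 52.0, 34.8, 29.6 and 21.0 TPM, and in gradient 2 at 40.5, 49.7, 31.4 and 20.1 TPM. The gradients were close to each other here, with light zone means of 34.9 ± 0.788 TPM (SD, n = 2 gradients) against 6.00 ± 1.30 in the middle zone and 2.86 ± 0.581 in the dense zone. Light and dense fractions did not overlap. Between these zones Neat1 changed by −3.18 (standard error 0.24, adjusted p = 3.53e-04). From the middle to the dense zone it was −0.87 (adjusted p = 0.0438), a call lost in 11 of 15 alternatives with a test, with adjusted p between 0.0042 and 0.236. Leaving out any one of the 6 zone means was enough to lose it, though the fits without a middle zone called no gene at all. Leaving out a light zone cannot move the change itself, since only middle and dense zone means enter it. Without the middle zone of gradient 1 the change was −1.06.

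Kcnq1ot1 was low, between 0.837 and 11.5 TPM in gradient 1 (median 1.71) and between 0.858 and 8.29 TPM in gradient 2 (median 1.50). Fraction 5 was highest in both gradients. The light zone was at 7.68 ± 1.04 TPM, the middle zone at 1.76 ± 0.17 and the dense zone at 1.09 ± 0.0916 (SD, n = 2 gradients). Its light-to-dense change was −2.03 (standard error 0.20, adjusted p = 6.39e-04), which the added 1 in log2(TPM + 1) makes smaller for a low RNA. The mean TPM of the light zone was 7.27 times that of the dense zone in gradient 1 and 6.75 times in gradient 2. From the middle to the dense zone the change was −0.40 (adjusted p = 0.2). Kcnq1, on the opposite strand of the same locus, was at most 2.14 TPM in gradient 1 and 1.05 TPM in gradient 2. The libraries were stranded, but the sources used here do not say whether the counting used strand, so reads of the antisense pair may have been shared.

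Gas5, a host of many box C/D snoRNAs that accumulates when growth stops, was the host RNA with the steepest slope beside Snhg8. It ranged from 2.39 to 80.1 TPM in gradient 1 (median 6.00) and from 1.74 to 111 TPM in gradient 2 (median 6.86). Fractions 4 to 7 were at 31.3, 46.5, 80.1 and 75.8 TPM in gradient 1, and at 54.1, 63.2, 111 and 88.5 TPM in gradient 2. Gas5 was thus higher at fraction 6 than at fraction 4 in both gradients. Its light-to-dense change was −3.75 (standard error 0.24, adjusted p = 3.01e-04), with 14.4 times more mean TPM in the light zone than in the dense zone in gradient 1 and 20.0 times in gradient 2. From the middle to the dense zone it was −0.90 (adjusted p = 0.0392), and 9 of 15 alternatives with a test lost that call. Leaving out any one of the 6 zone means was among them, though the fits without a middle zone called no gene at all. With all zone means in the fit, adjusted p ran from 0.00503 to 0.188. Over all alternatives the change ran from −1.07 to −0.52.

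Snhg8 hosts a box H/ACA snoRNA, Snora24, which guides pseudouridylation. It ranged from 2.91 to 112 TPM in gradient 1 (median 5.40) and from 1.21 to 108 TPM in gradient 2 (median 5.13). Fractions 4 to 7 were at 24.5, 85.8, 105 and 112 TPM in gradient 1, and at 47.2, 77.4, 108 and 86.5 TPM in gradient 2. Fraction 4 was the lowest of the light zone in both gradients, yet still above every fraction of the dense zone, which reached 7.03 TPM in gradient 1 and 5.34 TPM in gradient 2. For Snhg8 the light-to-dense change was −4.06 (standard error 0.27, adjusted p = 3.21e-04), and only 36 of 11754 genes had a lower value. From the middle to the dense zone it was −0.71 (adjusted p = 0.111), with −0.25 in gradient 1 and −1.16 in gradient 2. It passed the threshold without the dense zone of gradient 1 (−1.04, adjusted p = 0.0387, from 0.0387 to 0.375 over the alternatives).

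Snhg12 ranged from 1.48 to 50.5 TPM in gradient 1 (median 4.91) and from 1.14 to 56.1 TPM in gradient 2 (median 6.04). Its light zone was at 35.6 ± 2.97 TPM, its middle zone at 6.24 ± 0.958 and its dense zone at 3.34 ± 1.07 (SD, n = 2 gradients). From light to dense Snhg12 changed by −3.16 (standard error 0.22, adjusted p = 3.3e-04), nearly that of Neat1. In gradient 1, fraction 19 stood apart in the dense zone at 10.8 TPM, where fractions 16 to 18 were at 1.99, 1.48 and 2.10 TPM. From the middle to the dense zone Snhg12 changed by −0.89 (adjusted p = 0.0347), and 8 of 15 alternatives with a test lost that call. Leaving out any one of the 6 zone means was among them, though the fits without a middle zone called no gene at all. With all zone means in the fit, adjusted p ran from 0.00834 to 0.146. Over all alternatives the change ran from −1.14 to −0.52.

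Snhg1 and Snhg3 kept more of their signal into the middle of the gradients. Snhg1 ranged from 3.87 to 61.8 TPM in gradient 1 (median 14.0) and from 2.33 to 57.7 TPM in gradient 2 (median 11.9). It was at 42.8 ± 4.82 TPM in the light zone, 15.8 ± 1.54 in the middle zone and 6.40 ± 1.38 in the dense zone (SD, n = 2 gradients). The 3 zones were thus ordered without overlap of the gradient means. Its change was −1.40 from the light to the middle zone (adjusted p = 0.00401) and −1.19 from the middle to the dense zone (adjusted p = 0.0124).

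Snhg3 was at 23.1 ± 2.83, 8.11 ± 2.27 and 2.61 ± 0.265 TPM in the light, middle and dense zones (SD, n = 2 gradients). Over single fractions it ran from 0 to 35.5 TPM in gradient 1 (median 10.9) and from 0 to 29.7 TPM in gradient 2 (median 3.93), and it was listed at 0 in 2 fractions of gradient 1 and 1 fraction of gradient 2. From the light to the dense zone it changed by −2.88 (standard error 0.25, adjusted p = 4.64e-04), and from the middle to the dense zone by −1.36 (adjusted p = 0.0134). Snhg3 is transcribed on the same strand as Rcc1 and lies across its start, so reads could have been shared between them. Rcc1 was at 7.04 TPM in the light zone and 11.7 TPM in the dense zone of gradient 1, and at 4.31 and 6.72 TPM in gradient 2, a change of 0.62 that did not pass the threshold (adjusted p = 0.205). Without the middle zone of either gradient, no gene at all was called between the middle and dense zones. The loss of the calls of Snhg1 and Snhg3 there can thus decide nothing about these RNAs. Without the middle zone of gradient 1, the change was −1.32 for Snhg1 and −1.18 for Snhg3. With all zone means in the fit, adjusted p ran from 0.00275 to 0.0461 for Snhg1 and from 0.00335 to 0.0288 for Snhg3.

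Snhg20 stood apart from the other hosts. It ranged from 0 to 13.0 TPM in gradient 1 (median 1.40) and from 0 to 5.48 TPM in gradient 2 (median 1.58), and was listed at 0 in 4 fractions of gradient 1 and 3 of gradient 2, fraction 4 of both among them. Fraction 8 was highest in both gradients. The light, middle and dense zones were at 1.91 ± 0.722, 2.43 ± 0.114 and 1.04 ± 0.164 TPM (SD, n = 2 gradients), so the light and middle zones differed by less than the spread. The light-to-middle change was 0.30 (adjusted p = 0.341), but with zones of fractions 4 to 6, 10 to 12 and 17 to 19 it was 0.92 and passed the threshold (adjusted p = 0.0266, from 0.0266 to 0.765 over the alternatives), and with fractions 5 to 7, 11 to 13 and 16 to 18 it was −0.36 (adjusted p = 0.242). Its light-to-dense change was −0.48 (standard error 0.24, adjusted p = 0.13), with −0.88 in gradient 1 and −0.07 in gradient 2, close to the median of all genes, −0.43. After quantile normalization the sign turned, to 0.13 (adjusted p = 0.663), and with zones of fractions 5 to 7, 11 to 13 and 16 to 18, which leave out the light fraction at 0, the change was −0.91 and passed the threshold (adjusted p = 0.0168, from 0.0168 to 0.801 over the alternatives). Between the middle and dense zones the change was −0.78 (adjusted p = 0.0609), which passed the threshold with the gradient as a replicate block (adjusted p = 0.0365) and with zones of fractions 4 to 6, 10 to 12 and 17 to 19 (adjusted p = 0.029, from 0.029 to 0.222 over the alternatives).

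**Figure D1:**
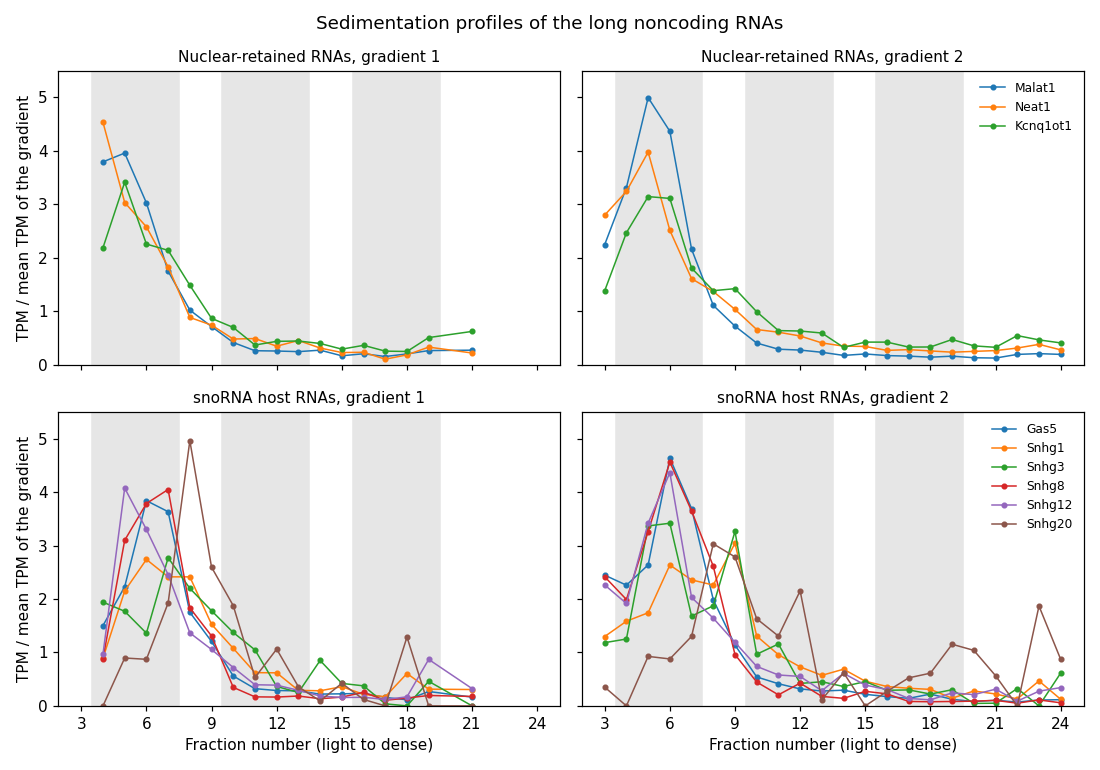
TPM divided by the mean TPM of the gradient (vertical axis) against the fraction number (horizontal axis), for nuclear-retained RNAs (top) and snoRNA host RNAs (bottom) in gradient 1 (left) and gradient 2 (right), with 1 library per point and the 3 zones in gray. Malat1, Neat1 and Kcnq1ot1 peak at fraction 4 or 5, most host RNAs at fractions 5 to 7, and Snhg20 at fraction 8.

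The scaling of the libraries bore on the size of these falls but not on the calls of the 8 RNAs between the light and dense zones. Over all genes the median light-to-dense change was −0.43, and after quantile normalization it was −0.05. Against the median of all genes, the changes of the 8 RNAs ran from −3.68 for Malat1 to −1.61 for Kcnq1ot1. Of the 7274 genes called between these zones, 2616 were higher in dense fractions and 4658 lower, and after quantile normalization 3603 were higher and 3512 lower. Between the middle and dense zones the median of all genes went from −0.28 to 0.03 with that normalization, the calls from 563 higher and 2645 lower to 1213 higher and 1607 lower, and Neat1, Gas5 and Snhg12 were no longer called.

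Between the light and dense zones the median change was −3.18 for the 3 nuclear-retained RNAs and −3.02 for the 6 host RNAs, a difference of −0.16. The difference was −0.29 in gradient 1 and 0.02 in gradient 2, so its sign was not shared by the gradients. The steepness of the fall thus did not separate the nuclear-retained from the host RNAs. Malat1 and Snhg8 fell most. Of the 8 RNAs that fell, Kcnq1ot1 fell least on the log2(TPM + 1) scale, which makes the changes of low RNAs smaller.

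The position of the maximum did differ. Malat1 was highest at fraction 5 in both gradients, Neat1 at fraction 4 in gradient 1 and fraction 5 in gradient 2, and Kcnq1ot1 at fraction 5 in both. Gas5 was highest at fraction 6 in both gradients, Snhg8 at fractions 7 and 6, Snhg12 at fractions 5 and 6, Snhg1 at fractions 6 and 9, Snhg3 at fractions 7 and 6, and Snhg20 at fraction 8 in both. Except for Snhg12 in gradient 1, each host RNA thus had its maximum in a denser fraction than the nuclear-retained RNAs of the same gradient.

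To put a value on this, the mean TPM of fractions 4 and 5 was set against that of fractions 6 to 8, as a difference of log2(TPM + 1) and with no test, since the comparison was chosen after the profiles had been seen. Neat1 was higher in the lighter fractions by 1.01 ± 0.0806, Malat1 by 0.85 ± 0.208 and Kcnq1ot1 by 0.41 ± 0.0674 (SD, n = 2 gradients). The host RNAs Gas5, Snhg1 and Snhg8 were at −0.59 ± 0.158, −0.62 ± 0.133 and −0.57 ± 0.165. Snhg3 was at −0.09 ± 0.12 and Snhg12 at 0.04 ± 0.0638, both within their spread of 0, and Snhg20 was at −1.51 ± 0.472. In both gradients, every nuclear-retained RNA was above every host RNA. The median of all genes tested was −0.18, and 94.2% of them were below Malat1, 96.4% below Neat1 and 80.9% below Kcnq1ot1. For the hosts, 63.1% of genes were below Snhg12, 55.4% below Snhg3, 28.7% below Snhg8, 27.3% below Gas5, 26.2% below Snhg1 and 2.96% below Snhg20.

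The most abundant RNA of fraction 4 was the same small RNA in both gradients. Rpph1, the RNA of ribonuclease P, took 25.0% of all TPM in fraction 4 of gradient 1 and 13.4% in fraction 4 of gradient 2, which lowers the share of all other RNAs there. When TPM was rescaled without the 50 most abundant genes, an alternative also chosen after the data had been seen, Neat1 was at 1.27, Malat1 at 1.08 and Kcnq1ot1 at 0.62, against −0.38 for Gas5, −0.43 for Snhg1 and −0.40 for Snhg8. Snhg3 then turned from −0.09 to 0.13, while the median of all genes moved from −0.18 to 0.015, and Snhg12 moved from 0.04 to 0.20, positive in both gradients. With the same rescaling, the maximum of Malat1 in gradient 1 moved from fraction 5 to fraction 4 and that of Snhg3 in gradient 2 from fraction 6 to fraction 5, and no other maximum of the 9 RNAs moved.

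**Figure D2:**
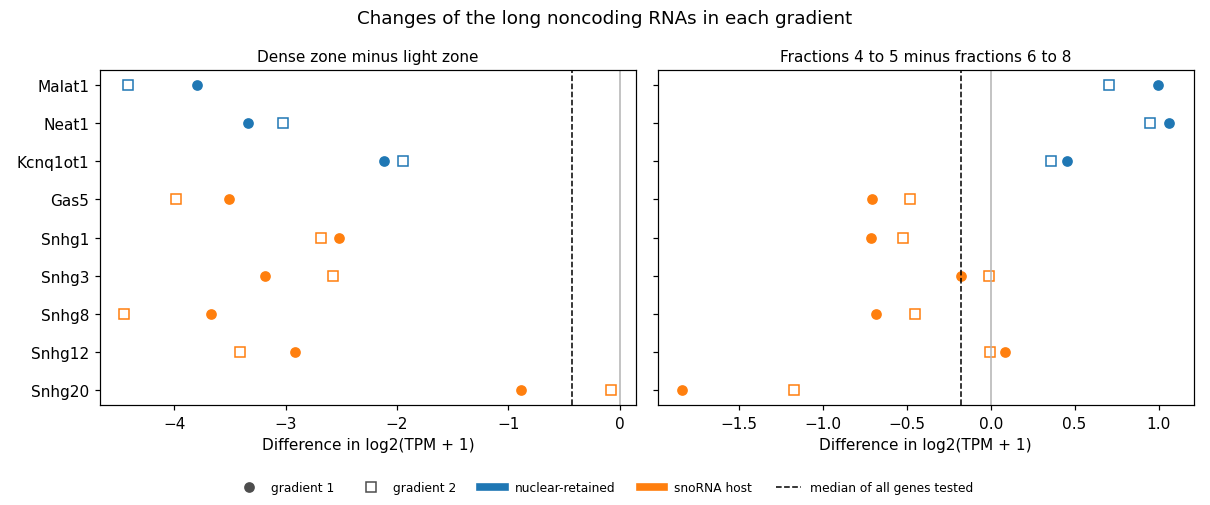
Differences in log2(TPM + 1) of each RNA (horizontal axis) in gradient 1 (filled circles) and gradient 2 (open squares), from the light to the dense zone (left) and between fractions 4 to 5 and fractions 6 to 8 (right), with the median of all genes tested as a dashed line. On the left the values of nuclear-retained and host RNAs intermingle, and on the right the nuclear-retained RNAs have higher values than all host RNAs.

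The TPM summed over fractions 4 to 19 was spread as follows. Fractions 4 and 5 held 46.4% of it for Malat1 in gradient 1 and 44.0% in gradient 2, and 45.1% and 40.8% for Neat1. For Kcnq1ot1 they held 34.2% and 30.3%. Fractions 6 to 9 held 39.0% and 44.3% for Malat1 and 41.2% and 41.8% for Kcnq1ot1, so Kcnq1ot1 in both gradients and, slightly, Malat1 in gradient 2 had more in fractions 6 to 9 than in fractions 4 and 5. For Gas5 fractions 4 and 5 held 22.2% and 25.7%, and fractions 6 to 9 held 61.9% and 60.1%, while for Snhg20 fractions 4 and 5 held 5.27% and 5.35%. For the host Snhg12 they held 30.3% and 28.8%, close to the shares of Kcnq1ot1. The median gene had 11.9% and 12.3% in fractions 4 and 5, and 28.7% and 28.6% in fractions 6 to 9. Each of the 9 RNAs had more than the median gene in fractions 6 to 9, and each but Snhg20 also in fractions 4 and 5.

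The center of sedimentation, each fraction number averaged with TPM as its weight over the 17 fractions of gradient 1 and the 22 of gradient 2, was 6.96 ± 0.144 for Malat1, 7.58 ± 0.474 for Neat1 and 8.81 ± 0.524 for Kcnq1ot1 (SD, n = 2 gradients). Among host RNAs it ran from 7.16 ± 0.402 for Snhg8 and 7.39 ± 0.394 for Gas5 to 8.90 ± 0.236 for Snhg1 and 11.1 ± 2.26 for Snhg20. The medians of all genes were 11.3 in gradient 1 and 12.5 in gradient 2. Centers of the nuclear-retained and host RNAs overlapped, and apart from Snhg20 in gradient 2 (12.7) each lay on the light side of the median gene. Over the 17 shared fractions Snhg20 was at 10.1 ± 0.942, with 10.8 in gradient 2 against a median of 11.3, so the exception was not found there.

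At the bottom of gradient 2, fractions 22 to 24 were compared with the dense zone. Malat1 was at 28.1 to 30.2 TPM there, above each of its 4 dense zone fractions, and Gas5 at 1.74 to 2.79 TPM, below each of them. Neat1 ran from 3.49 to 4.78 TPM, where its dense zone ran from 2.94 to 3.54 TPM. Kcnq1ot1 ran from 1.08 to 1.44 TPM, where its dense zone ran from 0.872 to 1.25 TPM. For both RNAs these ranges overlapped. On the log2(TPM + 1) scale the differences of the means were 0.31 for Malat1, 0.24 for Neat1 and 0.15 for Kcnq1ot1, and −0.10 for the median gene. For the host RNAs Gas5 and Snhg8 they were −0.55 and −0.46. The Snhg8 value hangs on fraction 16, at 5.34 TPM, where fractions 17, 18 and 19 were at 1.97, 1.84 and 1.97 TPM. Snhg8 was at 1.21, 2.66 and 1.37 TPM in fractions 22, 23 and 24, which lie on both sides of those values. The other hosts were uneven in fractions 22, 23 and 24, with 2.46, 8.84 and 2.33 TPM for Snhg1, 2.83, 0 and 5.33 TPM for Snhg3, 1.14, 3.54 and 4.40 TPM for Snhg12, and 0, 3.38 and 1.57 TPM for Snhg20. Their differences hang on single libraries and have no clear direction. Gradient 1 has no library of these fractions, so these differences have no replicate.

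The profiles were alike in the gradients. Over the 17 shared fractions, Pearson's R of log2(TPM + 1) between gradients was 0.979 for Malat1 (Spearman's rho 0.792), 0.974 for Gas5 (rho 0.904) and 0.965 for Neat1 (rho 0.922). It was lowest for Snhg20, at 0.715 (rho 0.71), and for Snhg3, at 0.849 (rho 0.838). The median R of the 9 RNAs was 0.948 and that of all genes tested 0.891, but the median rho was 0.831 and 0.833, so the RNAs were not more alike than other genes by rank. Neighboring fractions share a homogenate, so these values are descriptions without a p-value.

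Among themselves, the 3 nuclear-retained RNAs had a median pairwise R of 0.980 over the 22 fractions of gradient 2, from 0.960 to 0.987. The 15 pairs of host RNAs had a median R of 0.830, from 0.198 to 0.977, and the 18 pairs between the kinds a median of 0.884. The low values came from Snhg20. Without it, the host pairs had a median R of 0.886 (10 pairs) and the pairs between the kinds 0.932 (15 pairs). In gradient 1 the order was the other way, with 0.896 for the host pairs and 0.862 between the kinds without Snhg20, so the gradients did not share an order. Gas5 and Snhg8 were the most alike hosts, with an R of 0.977 in both gradients.

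To place each RNA among the other RNAs of liver, the 3 most alike genes were listed, by the lower of the R values of the gradients over 17 fractions, among the 6598 or 6599 other genes whose mean TPM over all fractions reached 10 in each gradient. Malat1 was most like Apob, which encodes the main apolipoprotein of very low density lipoproteins (R = 0.989), then Wdr92 (R = 0.986) and 2900097C17Rik (R = 0.986), the mouse gene of the cytoplasmic RNA Norad. Neat1 was most like 2900097C17Rik (R = 0.979), Malat1 (R = 0.976) and Tmem134 (R = 0.969). Kcnq1ot1 was most like A130077B15Rik (R = 0.986), Gm20300 (R = 0.981) and Malat1 (R = 0.981). Malat1 was thus among the neighbors of both other nuclear-retained RNAs, and 2900097C17Rik among those of Malat1 and Neat1.

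Gas5 was most like Rps12 (R = 0.986), H2-T10 (R = 0.984) and Rps20 (R = 0.983), of which Rps12 and Rps20 encode proteins of the small ribosomal subunit. Snhg1 was most like Tulp4 (R = 0.962), Rps29 (R = 0.961) and Maz (R = 0.958). Snhg8 was most like Gas5 (R = 0.972), Tmem8 (R = 0.971) and H2-T10 (R = 0.970), and Snhg12 was most like Kdm7a (R = 0.945), Chd9 (R = 0.945) and H2-T10 (R = 0.945). The closest genes of Snhg3 were Zfand4, Zfp809 and Ebag9 (R = 0.923, 0.921 and 0.920). Snhg20 had no close match: its highest value was with Gltpd2 (R = 0.817), followed by Nsun3 (R = 0.798) and Cpn1 (R = 0.787). Such values are common on the light side, since 463 genes were above 0.9 with Malat1 and 503 with Gas5.

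Other long noncoding RNAs moved the same way. Of 12 other nuclear or chromatin RNAs, 7 were tested and 7 of 7 were lower in the dense zone, where 39.6% of all genes were. Their median change was −1.96, and that of all genes −0.43. Low members, with mean TPM of 1.22 and 1.74, can have passed the filter through the light zone alone. Their falls say little, and 7 of 7 includes them. Tug1 fell most and was the most abundant, at −3.04 (standard error 0.22, adjusted p = 3.3e-04). After quantile normalization 5 of the 7 were called lower, where 3512 of 11754 genes were, with a median of −1.37. Of 16 other noncoding snoRNA hosts, 12 were tested and 11 were lower, beside the same 39.6% of all genes, with a median of −2.15. Low members, with mean TPM from 1.11 to 1.25, can have passed the filter through the light zone alone. Their falls say little, and a count without them was not made. Snhg6 fell most and was the most abundant, at −4.22 (standard error 0.19, adjusted p = 3.01e-04). The cytoplasmic 2900097C17Rik changed by −4.35 (standard error 0.17, adjusted p = 3.01e-04), beside −4.11 for Malat1, and was the only one of 3 listed cytoplasmic RNAs that was tested.

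Protein-coding genes that host snoRNAs were divided. Of 64 tested, 36 fell toward the dense zone and 11 rose, with a median of −1.44, beside 39.6% lower and 22.3% higher among all genes tested. The falls were mostly those of ribosomal protein genes, which make up 24 of the 64 and were lower in 24 of 24. Of the other 40 hosts, in the main fit and a split made after the values were seen, 12 were lower and 11 higher, with a median of 0.10. Over all 64, 17 rose and 36 fell after quantile normalization, and 18 and 34 with the trimmed mean of log ratios. Under the replicate block 18 rose and 40 fell. Among all 11754 genes 3603, 3610 and 3589 were higher in these fits, and 3512, 3645 and 5879 lower. Rps12 fell most (−4.34, adjusted p = 3.01e-04) and Atp5b, a subunit of mitochondrial ATP synthase, rose most (2.90, adjusted p = 3.01e-04), while Tpt1, the most abundant, changed by −3.84 (adjusted p = 3.01e-04). RNAs of cytosolic ribosomal proteins, these 24 among them, were lower in 78 of 81, again beside 39.6%, with a median of −2.53, and 1 was higher, Rps4l (3.03, adjusted p = 0.0045). Rpl10, the most abundant, changed by −1.76 (adjusted p = 0.00141). The median of the 6 host RNAs above, −3.02, lay beyond that of either list.

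RNAs that encode the proteins bound to snoRNAs went the other way between the light and dense zones. Of 12 tested RNAs of snoRNA-protein particles, 9 were higher in the dense than in the light zone and 1 was lower, where 22.3% of all genes were higher and 39.6% lower. Their median was 1.20. From the light to the middle zone 10 were higher, where 23.5% of all genes were. From the middle to the dense zone 2 were higher and 3 lower, where 4.79% of all genes were higher and 22.5% lower. That last balance depended on the scaling, with 5 higher and 3 lower after quantile normalization and 6 and 3 with the trimmed mean of log ratios, and 4 and 3 under the replicate block. Ruvbl1, an assembly factor, rose most (2.81, adjusted p = 3.06e-04), Nhp2l1 was the one that fell (−0.71, adjusted p = 0.00801), a call lost with the trimmed mean of log ratios, and Nop10, the most abundant, rose by 0.94 (adjusted p = 0.00389). Nop10 was highest in the middle zone, with 2.76 from light to middle (adjusted p = 0.0011) and −1.82 from middle to dense (adjusted p = 0.007).

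Of the mRNAs known for retention in liver nuclei, 2 were tested and neither was called in the main comparison. Mlxipl, the more abundant, was at 0.53 (adjusted p = 0.382) and Nlrp6 at −0.68 (adjusted p = 0.0623) for the light-to-dense change. Under the replicate block both were called, 1 higher and 1 lower, but so were 9468 of all 11754 genes (3589 higher and 5879 lower). When TPM was rescaled without the 50 most abundant genes 1 was called lower, where 4801 of 11704 genes were. Of 8 other small noncoding RNAs, 5 were tested and 5 were lower, where 39.6% of all genes were, with a median of −5.28, and Rpph1 fell most (−6.17, adjusted p = 3.01e-04).

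The genes of the members differ in build. On the mouse genome GRCm38, Malat1 lies at chr19:5795690-5802672 and Neat1 at chr19:5824708-5845478, both on the minus strand, with longest annotated transcripts of 6983 and 20771 bases, each spanning the gene in a single exon. Kcnq1ot1 (chr7:143203458-143296549, minus strand) is annotated as a single transcript of 93092 bases. The hosts are short and spliced. Gas5 (chr1:161034422-161038539, plus strand) has up to 12 exons and Snhg1 (chr19:8723475-8726443, plus strand) up to 10, and their gene bodies hold 10 and 8 annotated snoRNA genes on the same strand. Snhg12 (chr4:132308623-132311024, plus strand) holds 5, Snhg3 (chr4:132348014-132353686, minus strand) 2, Snhg8 (chr3:123507552-123508404, minus strand) 1, and Snhg20 (chr11:117076008-117078955, plus strand) a small Cajal body RNA and a microRNA. No snoRNA or microRNA gene is annotated inside Malat1, Neat1 or Kcnq1ot1.

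Few of the small RNAs inside the hosts had values, and 5 were listed in both gradients. Mir6516, whose hairpin lies inside Snhg20 at chr11:117077348-117077457, was the highest. It ran from 0 to 1971 TPM in gradient 1 (median 18.0) and from 0 to 7038 TPM in gradient 2 (median 21.0), and peaked at fraction 4 in gradient 1 and fraction 3 in gradient 2. Its light-to-dense change was −7.37 (standard error 0.68, adjusted p = 5.61e-04), where Snhg20 itself changed by −0.48. The R of log2(TPM + 1) between Mir6516 and Snhg20 was 0.199 over 17 fractions of gradient 1 and −0.02 over 22 of gradient 2. Exons of 2 of 7 Snhg20 transcripts overlap the hairpin, as does the small Cajal body RNA, so the authors' counting may have given reads of one to another, and TPM is unstable for features shorter than the fragments of a library.

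The small Cajal body RNA spans both mature strands of this microRNA and had no row of its own. The TPM of the hairpin is thus not a measure of these strands. They are shown since the hairpin fell most among the 5 small RNAs tested. They are printed 5′ to 3′ from RefSeq (GRCm38.p6, plus strand of chromosome 11) with the seed, bases 2 to 8, in capitals.
mmu-miR-6516-5p (chr11:117077370-117077391): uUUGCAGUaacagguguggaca
mmu-miR-6516-3p (chr11:117077412-117077433): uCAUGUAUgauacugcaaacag

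Inside Snhg1 lies Snord22, which peaked at fraction 4 in both gradients, at 86.7 and 706 TPM, and was listed at 0 in 9 and 8 fractions. From light to dense Snord22 changed by −4.24 (standard error 1.46, adjusted p = 0.0464), a call not shared by the quantile and trimmed scalings and the rescaling, under each of which 1 of the 5 small RNAs was called. In the main comparison 2 of the 5 were called lower, where 39.6% of all genes were. Under the replicate block 3 of the 5 were, where 5879 of 11754 genes were. Snora61, inside Snhg12, reached 65.5 TPM at fraction 6 of gradient 1 and 176 TPM at fraction 5 of gradient 2, with a change of −3.46 (standard error 1.54, adjusted p = 0.0968). Snora16a and Snora44, also inside Snhg12, were listed at 0 in at least 14 fractions of each gradient.

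Host genes of snoRNAs often start transcription in a pyrimidine tract, as the RNAs of ribosomal proteins do. The starts of all 6 host genes are shown, since 5 of these RNAs and most ribosomal protein RNAs fell toward the dense zone. An unbroken run of at least 5 letters C or T reaching within 5 bases of an annotated RefSeq start was found on the sense strand for 5 of the 6 host genes, and for 36.7% of 27025 genes with such a window. This rule was set after the sequences had been seen, and a run is a description of letters only. The windows hold 30 bases on each side of the start, 5′ to 3′, from RefSeq (GRCm38.p6), with the run in capitals.
Snhg1 (chr19:8723457-8723516, plus strand): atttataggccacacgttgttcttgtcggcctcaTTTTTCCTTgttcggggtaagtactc
Snhg12 (chr4:132308648-132308707, plus strand): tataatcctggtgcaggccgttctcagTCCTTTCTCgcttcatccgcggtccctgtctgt
Snhg8 (chr3:123508307-123508366, minus strand): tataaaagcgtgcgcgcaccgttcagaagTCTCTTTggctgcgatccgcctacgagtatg
Snhg3 (chr4:132353657-132353716, minus strand): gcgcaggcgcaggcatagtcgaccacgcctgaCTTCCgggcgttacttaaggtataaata
Gas5, downstream start (chr1:161035136-161035195, plus strand): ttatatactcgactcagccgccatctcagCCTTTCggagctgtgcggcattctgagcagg
Snhg20 (chr11:117076753-117076812, plus strand): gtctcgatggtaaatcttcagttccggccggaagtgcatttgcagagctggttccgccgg
The longest runs, of 9 bases, were those of Snhg1 and Snhg12. The start of Snhg3 had a run of 5 bases. The upstream start of Gas5 and the starts of Snhg20, Malat1 and Kcnq1ot1 had none. A link between such a run and the fall of an RNA was not tested. No start window was at hand for Neat1.

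Summed TPM of the markers of liver cell types, except those of cholangiocytes, was also higher in the light than in the dense zone, which abundant genes can carry. The 6 hepatocyte markers, of which Alb was the most abundant, summed to a mean of 48550 TPM in the light zone and 9482 TPM in the dense zone of gradient 1, and to 34960 and 18940 TPM in gradient 2. Singly, 3 of these 6 fell toward the dense zone and 1 rose, Cps1 (2.12, adjusted p = 0.00647), named after its value was seen. Beside 39.6% lower and 22.3% higher over all genes, lists this short show little. Of the tested markers of the other cell types, 3 of 4 for Kupffer cells, 3 of 4 for stellate cells, 2 of 3 for sinusoidal endothelium, 2 of 3 for red cells and neither of 2 for cholangiocytes were lower. The 4 Kupffer cell markers, led by Cd5l, went from 137 to 40.7 TPM and from 128 to 45.9 TPM, and the 4 stellate cell markers, led by Dcn, from 39.4 to 11.5 TPM and from 52.8 to 17.8 TPM. The 4 sinusoidal endothelial markers, led by Clec4g, went from 51.0 to 26.5 TPM and from 30.9 to 16.7 TPM. Red cell markers, with 3 of 4 present and led by Hba-a1, went from 576 to 148 TPM and from 458 to 141 TPM, and cholangiocyte markers, with 3 of 4 present and led by Sox9, from 4.03 to 5.43 TPM and from 3.42 to 4.05 TPM. Their part in the profiles of the noncoding RNAs was not tested.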

How the data were processed

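Reads of stranded, rRNA-depleted libraries were demultiplexed with bcl2fastq 2.16.0.10 (submitters' processing notes) and pseudo-aligned by the authors with kallisto (version not given in the sources used here) to mm10 RefSeq transcripts. The authors deposited 1 TPM table per gradient by gene symbol, keeping genes over 1 TPM in at least 1 fraction.

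Zone means of log2(TPM + 1), 6 per gene, were fitted with limma 3.58.1 (R 4.3.3; lmFit, contrasts.fit, eBayes with trend) after a filter on mean TPM of at least 1 over 24 libraries, and tested on simulated data. Each gradient is 1 homogenate, which pairs its zones: gradient deviations had an r across genes of 0.665 (light with middle), 0.540 (light with dense) and 0.798 (middle with dense). The simulated zone means varied independently, so the simulation does not cover this pairing. With 2 gradients, p-values rest on spread pooled over genes. The members and lists were chosen with earlier results of these data known. Genes named are all members, their 3 most alike genes and, from each list, the largest rise, the largest fall and the most abundant gene. Alternatives were the pseudocount, filters, scalings, zone borders, a replicate block and leaving out zone means. Coordinates are from GENCODE for GRCm38, the assembly of mm10. Profiles used Python 3.11.15, NumPy 2.4.6, pandas 2.3.3 and SciPy 1.17.1.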

Additional observations from a re-analysis of the deposited data

How the results depend on the processing

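Over 17 alternatives, the light-to-dense and light-to-middle results of the 9 RNAs kept their direction and side of the threshold in 131 of 133 tested values each. From middle to dense 32 of 133 lost a call and 4 gained one. The other 18 of 151 values, from a single gradient, have no test and kept their direction. Directions were in part fixed. The filters, the replicate block and leaving out a zone outside the comparison leave a change as it was and can alter only its adjusted p. Snhg20 changed sign, to 0.13 from light to dense after quantile normalization and to −0.36 from light to middle with fractions 5 to 7, 11 to 13 and 16 to 18. For these the cause was not tested. Snhg3 turned to 0.13 between fractions 4 to 5 and 6 to 8 without the 50 most abundant genes, a rescaling that moved the median of all genes from −0.18 to 0.015.

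With the gradient as a replicate block, which pairs the zones, limma called 8478 genes from light to middle (5589 without it) and 6275 from middle to dense (3208 without it). Of the 9 RNAs it changed only the middle-to-dense calls of Malat1 and Snhg20. Leaving out 1 zone mean, where the lone zone is assumed to vary like the others, gave 2913 to 6042 and 0 to 2447 genes. The 0 came from limma without the middle zone of either gradient, where 3374 and 3510 genes had an unadjusted p under 0.05. Raising the filter to a mean TPM of 10 gave 4798 light-to-dense calls (7274 otherwise), with fewer genes tested.

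Nuclear-retained minus host medians moved from −0.16 to 0.069 with log2(TPM + 0.1), −0.48 with the filter at TPM 10, which drops Kcnq1ot1 and Snhg20, and 0.40 with fractions 5 to 7, 11 to 13 and 16 to 18. The median likeness between gradients was 0.939 on linear TPM. Pairwise medians were 0.954 (nuclear-retained) and 0.823 (between kinds) on linear TPM, and 0.976, 0.767 (hosts) and 0.841 in gradient 1. Apart from that filter, the cause was not tested.

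With 2 gradients, 6 zone means and TPM without counts, small differences, low RNAs such as Snhg20 and values at 0 are the least certain. Shares within fractions say nothing of amounts, and RNA left in the spun-out nuclei was not measured.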
